A study of Mus musculus with 8 samples.

Results

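The 9 genes that interferon or virus infection is known to induce were followed through mouse P19 cells that had received lentivirus. They are Rsad2, Bst2, Ifit1, Ifit3, Isg15, Irf7, Irf1, Ifih1 and Ddx58. These 9 members, of 37558 genes in the count table, were picked by symbol with their levels in all 8 libraries in view, so their levels and ratios are given as a description with no test. Each of the 9 symbols matched 1 gene of the table.

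P19 is a mouse embryonal carcinoma line that can form neurons or muscle. The 8 cultures carried GFP as the control, MyoD, NeuroD2, the MD(ND2bHLH) chimera (MyoD whose bHLH DNA-binding domain comes from NeuroD2), the MD(ND2bHLH)WC mutant or the MD(ND2bHLH)WCS mutant. For the chimera and the WCS mutant a second culture carries the label MOI 100, where MOI (multiplicity of infection) is the ratio of virus to cells. The labels give no MOI for the other 6 and no definition of WC and WCS. All 8 cultures, GFP included, were infected by lentivirus with polybrene and later moved to a neuronal medium, and no uninfected culture was analysed here. The response to infection itself therefore cannot be read from these libraries, only how the members differ between infected cultures. Each group had 1 library. RNA was harvested with either of 2 methods, a column kit or Trizol, and the labels do not say which was used for which library.

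Cells sense foreign RNA through receptors such as RIG-I (encoded by Ddx58) and MDA5 (encoded by Ifih1), which signal through the adaptor MAVS to the factors IRF3 and IRF7. These turn on type I interferon genes. Secreted interferon binds its receptor and, through JAK1, TYK2, STAT2 and IRF9, activates genes that carry an interferon-stimulated response element. Embryonic stem and embryonal carcinoma cells are known for a weak interferon response compared with differentiated cells.

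The start regions of 3 members are shown for the sites they carry: a gene high in 1 library (Rsad2), a gene highest in GFP (Bst2) and a nearly silent gene (Isg15). The 250 bases before the start are printed from RefSeq on GRCm38.p6, another build than the mm9 of the counts. Capitals mark matches on either strand to the core of the response element (GAAA, any 2 bases, GAAA), or to CANNTG, the E-box bound by bHLH proteins such as MyoD and NeuroD2.
Rsad2 (chr12:26456453-26456702, minus strand): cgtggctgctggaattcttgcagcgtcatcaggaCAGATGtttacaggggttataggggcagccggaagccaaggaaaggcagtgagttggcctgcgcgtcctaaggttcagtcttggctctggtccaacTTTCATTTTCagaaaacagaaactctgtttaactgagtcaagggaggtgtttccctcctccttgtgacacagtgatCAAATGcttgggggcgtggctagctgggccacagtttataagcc
Bst2 (chr8:71537473-71537722, minus strand): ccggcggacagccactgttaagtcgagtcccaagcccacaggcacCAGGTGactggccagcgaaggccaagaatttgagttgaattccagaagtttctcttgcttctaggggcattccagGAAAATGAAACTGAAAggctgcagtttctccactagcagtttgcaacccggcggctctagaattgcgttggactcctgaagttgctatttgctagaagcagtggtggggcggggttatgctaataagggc
Isg15 (chr4:156200819-156201068, minus strand): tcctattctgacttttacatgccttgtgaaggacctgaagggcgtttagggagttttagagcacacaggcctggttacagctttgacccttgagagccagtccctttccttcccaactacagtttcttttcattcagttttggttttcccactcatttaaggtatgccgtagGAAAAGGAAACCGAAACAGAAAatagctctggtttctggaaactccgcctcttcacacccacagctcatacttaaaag
Rsad2 held 1 response element core, 120 bases before the start, and 2 E-boxes, CAGATG at 216 bases and CAAATG at 44. Bst2 held 2 overlapping response element cores, at 130 and 124 bases, and 1 E-box, CAGGTG, at 205. Bases just after this Bst2 start were not found in its GENCODE transcripts, unlike those of the other members. The Bst2 distances are therefore less certain. Isg15 held 3 overlapping cores, at 78, 72 and 66 bases, and no E-box in this window. Of the 9 members, 5 had at least 1 response element core in the 250 bases (Bst2, Ifit1, Ifit3, Isg15 and Rsad2), against 2.98% of 32851 RefSeq start windows of the same length. At least 1 CANNTG stood in 8 of the 9, against 66.2% of windows. CAGCTG stood in Ddx58, Ifit3 and Irf1 (13% of windows), CAGATG in Rsad2 alone (14.4%), CAGGTG in Bst2 alone (17.2%), and the STAT-type site TTCNNNGAA in Bst2 and Irf1 (7.02%). The members were chosen as interferon-induced genes, so the share with a response element core is no independent finding. A match describes letters, not binding.

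Most of the set was close to silent in every library. The members Ifit1, Ifit3, Isg15, Irf7, Ifih1 and Ddx58 stayed under 1 CPM (read counts scaled to a common library size after TMM scaling) in all 8 libraries, and the other 3 of the 9, Rsad2, Bst2 and Irf1, reached it in at least 1. Of all genes counted, 41.4% reached 1 CPM somewhere. Library totals ran from 26410500 counts in the chimera to 43984066 in GFP, so that 3 reads stand for 0.073 to 0.115 CPM, and a count of 0 allows a level up to that limit.

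**Figure D1:**
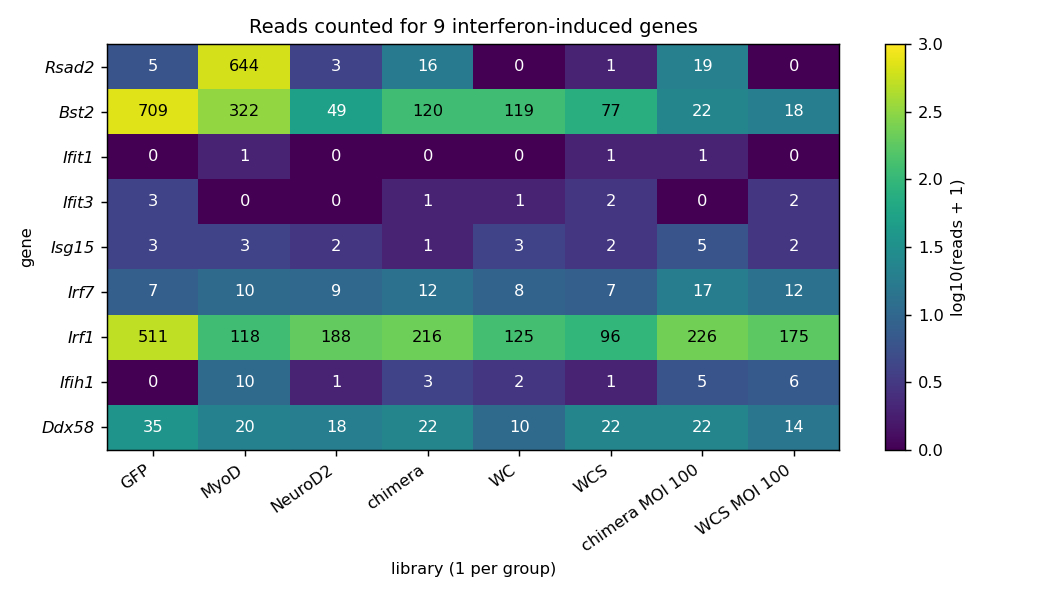
Reads counted per gene (rows) and library (columns, 1 per group), with the number printed in each cell and colour on a log10(reads + 1) scale. Rsad2 is bright in MyoD alone, with 644 reads, Bst2 and Irf1 are highest in GFP, and Ifit1, Ifit3 and Isg15 have 5 reads or fewer in every library.

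The classical antiviral effectors were at the edge of detection. Ifit1, which binds viral RNA ends, had 1 read in MyoD, 1 in WCS and 1 in the chimera at MOI 100, and 0 in the other 5 libraries. Ifit3, its partner protein, had 3 reads in GFP, 2 in WCS, 2 in WCS at MOI 100, 1 in WC, 1 in the chimera and 0 in MyoD, NeuroD2 and the chimera at MOI 100. Neither gene separates any library from another at this depth. Isg15, a ubiquitin-like modifier that is among the strongest interferon targets, had 3 reads in GFP, 3 in MyoD, 3 in WC, 2 in NeuroD2, 2 in WCS, 2 in WCS at MOI 100, 1 in the chimera and 5 in the chimera at MOI 100. Its highest level, 0.174 CPM (exact Poisson 95% interval 0.0563 to 0.405, counting error only), stood against 0.073 CPM (0.015 to 0.213) in GFP, a ratio of 2.38 whose exact conditional binomial 95% interval on the counts (0.463 to 15.3) holds 1. At MOI 100 it had 5 reads against 1 in the chimera and 2 against 2 in WCS, so no difference was detectable at this depth.

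The RNA sensors and Irf7 were low in every library. Ddx58 stood at 0.851 CPM in GFP, 0.829 in the chimera, 0.768 in MyoD, 0.764 in the chimera at MOI 100, 0.747 in WCS, 0.629 in NeuroD2, 0.439 in WCS at MOI 100 and 0.321 in WC. It was lower than in GFP beyond counting error in the WC library (2.65-fold, 1.29 to 6.01) and in WCS at MOI 100 (1.94-fold, 1.02 to 3.9), while the ratio intervals of the other 5 libraries over GFP held 1. Irf7, which amplifies the interferon response, had 17 reads in the chimera at MOI 100, 12 in the chimera, 12 in WCS at MOI 100, 10 in MyoD, 9 in NeuroD2, 8 in WC, 7 in WCS and 7 in GFP. That is 0.59 CPM (0.344 to 0.945) at the top and 0.17 CPM (0.0684 to 0.351) in GFP, the lowest, a ratio of 3.47 (1.37 to 9.89) that exceeded counting error. The intervals of the other 6 libraries over GFP held 1. Ifih1 had 10 reads in MyoD, 6 in WCS at MOI 100, 5 in the chimera at MOI 100, 3 in the chimera, 2 in WC, 1 in WCS, 1 in NeuroD2 and 0 in GFP. Its level in MyoD was 0.384 CPM (0.184 to 0.706), and GFP had 0 reads, which allows up to 0.0897 CPM. Of the 12 ratios between libraries computed for each gene, 4 of Ifih1 exceeded counting error: MyoD, the chimera at MOI 100 and WCS at MOI 100 over GFP (lower bounds 3.54, 1.31 and 1.52) and MyoD over NeuroD2 (10.99-fold, 1.56 to 477, on 10 against 1 read). These intervals are not adjusted for the number of ratios.

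Rsad2 (ENSMUSG00000020641) was high in 1 library. It encodes viperin, a radical-SAM enzyme that makes a chain-terminating nucleotide against viruses. It reached 24.7 CPM in MyoD (644 reads), against 0.659 in the chimera at MOI 100 (19 reads), 0.603 in the chimera (16), 0.122 in GFP (5), 0.105 in NeuroD2 (3), 0.034 in WCS (1) and 0 in WC and in WCS at MOI 100. MyoD was the only library above 1 CPM, and its interval (22.9 to 26.7 CPM) lay far above the others. MyoD was 37.5-fold above the next library, the chimera at MOI 100 (exact conditional binomial 95% interval on the counts 23.8 to 62.7). The next step of the order, from the chimera at MOI 100 to the chimera, was not separable (1.09-fold, 0.533 to 2.27), whereas the chimera lay above GFP by 4.96-fold (1.74 to 17.3) on 16 against 5 reads. From GFP downward no neighbouring libraries differed beyond counting error. The 2 chimera libraries, with 16 and 19 reads, thus sat above the 3 libraries of its mutants, with 0, 1 and 0.

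Among 13386 named genes measured at 1 CPM or more in some library, the 3 with the pattern nearest to Rsad2, by Pearson r of log2(CPM + 0.5) over the 8 libraries, were Art3 (r = 0.999), an ADP-ribosyltransferase family gene, Sln (r = 0.998), which encodes the muscle calcium pump regulator sarcolipin, and Myot (r = 0.996), which encodes the Z-disc protein myotilin. All 8 points share the libraries and the scaling, and each r rests mainly on the 1 MyoD library. Sln stood at 36.02 CPM in MyoD, 0.694 in the chimera at MOI 100 and 0.527 in the chimera, and at 0.034 CPM or less elsewhere. Myog, the myogenic factor myogenin, stood at 95.1 CPM in MyoD, 58.2 in the chimera, 197 in the chimera at MOI 100 and 0.175 CPM or less in the other 5 libraries, so its highest level was not in MyoD. The 6 muscle markers summed to 9944 CPM in MyoD, 1613 in the chimera at MOI 100, 987 in the chimera and 16.6 to 49.4 in the rest. In bulk RNA, more cells of a type and more RNA per cell cannot be told apart.

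The genes flanking Rsad2 had other patterns. Cmpk2, a mitochondrial nucleotide kinase gene that lies next to Rsad2 in the RefSeq gene order and is commonly induced with it, stood at 0.269 CPM in MyoD against 0.195 in GFP. Cmpk2 was instead at 1.94 CPM in WCS at MOI 100, 1.91 in the chimera at MOI 100, 1.89 in NeuroD2, 0.904 in the chimera, with 0.306 for WCS and 0.385 for WC. Rnf144a, the next protein-coding gene on the other side, stood at 25.6 CPM in MyoD and 58.1 in NeuroD2, so neither flanking gene had its highest level where Rsad2 did. Rnf144a was looked up after the values of Rsad2 were seen. The 10 leukocyte markers summed to 24.5 CPM in MyoD, within the range of 19.6 to 39.5 CPM over all libraries. Of these, 5 stayed under 1 CPM, among them Ptprc, which encodes CD45, with at most 1 read in any library and the macrophage gene Adgre1 with at most 2. The other 5 were present: Csf1r ran from 9.76 to 12.7 CPM, Lyz2 from 3.09 CPM to its highest level of 7.14 in MyoD and Cd68 from 2.07 to 4.84 CPM, while Laptm5 and Itgam were highest in the chimera at MOI 100. The stress list includes targets of ATF4 and p53. Its 8 genes summed to 2066 CPM in MyoD, the highest, against 1117 to 1730 elsewhere. The largest part in MyoD was Asns, at 976 CPM. Hspa5 was highest in the chimera at MOI 100 (997 CPM against 496 in MyoD). Mdm2 was highest in WCS at MOI 100 (71.9 CPM against 55.8 in MyoD). The rest of the list was highest in MyoD. The part of these lists in the Rsad2 level was not tested.

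**Figure D2:**
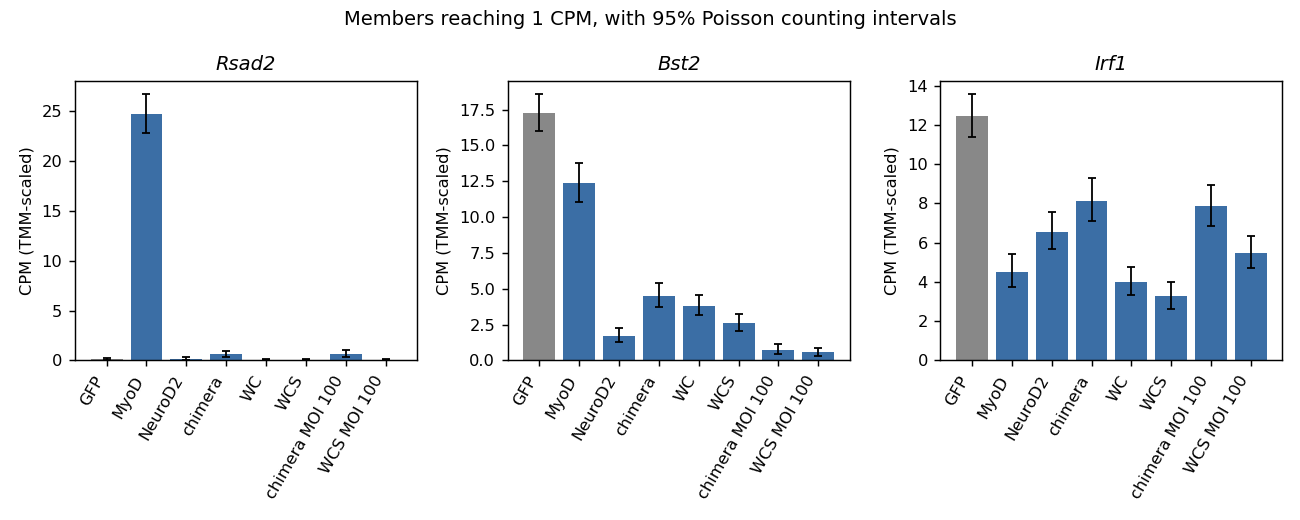
CPM (y axes from 0) of Rsad2, Bst2 and Irf1 in each of the 8 libraries, grey for GFP, with exact Poisson 95% intervals for counting error as bars. Rsad2 is high in MyoD alone, Bst2 runs from 17.2 CPM in GFP to 0.564 in WCS at MOI 100, and Irf1 is highest in GFP at 12.4 CPM.

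Bst2 (ENSMUSG00000046718) was highest in GFP. It encodes tetherin, which holds budding enveloped viruses, retroviruses among them, at the cell surface. Its level was 17.2 CPM in GFP (709 reads), 12.4 in MyoD, 4.52 in the chimera, 3.82 in WC, 2.62 in WCS, 1.71 in NeuroD2, 0.764 in the chimera at MOI 100 and 0.564 in WCS at MOI 100 (18 reads). GFP was highest, and both MOI 100 libraries were lowest. Of the 7 steps in this order, 5 exceeded counting error, while the steps from the chimera to WC (1.18-fold, 0.911 to 1.54) and between both MOI 100 libraries (1.35-fold, 0.693 to 2.68) did not. Within a construct Bst2 was lower with the MOI 100 label, by 5.92-fold for the chimera (3.74 to 9.8) and 4.64-fold for WCS (2.75 to 8.23).

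Of 5 markers of undifferentiated P19 cells, 4 were also highest in GFP and lowest in the MOI 100 libraries, and Sox2 was not. The 5 P19 markers Pou5f1, Sox2, Utf1, Nanog and Lin28a summed to 2650 CPM in GFP, 1144 in MyoD, 1083 in WC, 1060 in WCS, 883 in the chimera, 662 in NeuroD2, 424 in WCS at MOI 100 and 389 in the chimera at MOI 100. Pou5f1, which encodes Oct4, ran from 1227 CPM in GFP to 29.1 in WCS at MOI 100. Sox2 stood at 124 CPM in GFP, was highest in WCS (205 CPM) and lowest in MyoD (95.7 CPM), with 108 and 126 CPM at MOI 100 in the chimera and WCS. Their part in the Bst2 level was not tested. The 3 genes nearest in pattern to Bst2 were Hrh1, a histamine receptor (r = 0.996), Mtln, a mitochondrial microprotein gene (r = 0.994), and Dse, a dermatan sulfate epimerase (r = 0.992), again over 8 libraries that share their scaling. None of these 3 is on the interferon lists used here. Hrh1 stood at 19.9 CPM in GFP and 0.376 in WCS at MOI 100.

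Irf1 (ENSMUSG00000018899), a transcription factor downstream of interferon gamma and NF-kB, was also highest in GFP but followed another order. It stood at 12.4 CPM in GFP, 8.14 in the chimera, 7.84 in the chimera at MOI 100, 6.57 in NeuroD2, 5.48 in WCS at MOI 100, 4.53 in MyoD, 4.01 in WC and 3.26 in WCS. Only the step from GFP to the chimera (1.53-fold, 1.3 to 1.8) exceeded counting error between neighbours, while the ends of the order were 3.81-fold apart (3.06 to 4.79). At MOI 100 Irf1 was level in the chimera (0.964-fold, 0.796 to 1.17) and 1.68-fold higher in WCS (1.3 to 2.18). Irf1 thus did not share the low MOI 100 levels of Bst2. All ratios over GFP rest on the same single GFP library.

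Set against GFP by a size rule (a ratio of 4-fold or more between values of CPM + 0.5, and 5 CPM or more in the higher library), 1 member was higher in MyoD, Rsad2, where 2.75% of 15547 measured genes were. Bst2 was the member lower in the other comparisons that had one. It was 10.1-fold lower in NeuroD2 (7.54 to 13.7, background 1.6% of genes lower), 4.51-fold lower in the WC library (3.71 to 5.53, 0.605%) and 6.59-fold lower in the WCS library (5.21 to 8.45, 0.9%). At MOI 100 it was 22.6-fold lower in the chimera (14.8 to 36.3, 2.51%) and 30.6-fold lower in WCS (19.2 to 51.9, 3%). In the chimera with no MOI label Bst2 was 3.81-fold lower (3.14 to 4.67) and 0 members met the rule (2.89% of genes met it). The WC call was lost when libraries were scaled to total gene counts or with a pseudocount of 2 CPM. Only the 3 members that reached 1 CPM could meet the rule, and it uses the values the members were picked on, so nothing is read from these counts.

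Between MyoD and NeuroD2 both Rsad2 and Bst2 met the rule as higher in MyoD (2.64% of genes did). Bst2 was 7.22-fold higher (5.33 to 9.97), a call lost with a pseudocount of 2 CPM. Between each MOI 100 library and its partner 0 members met it (0.926% of genes in the chimera and 1.18% in WCS), where Bst2 had log2 ratios of CPM + 0.5 of -1.99 and -1.55, short of 4-fold, and started below 5 CPM. Between WCS and the chimera 0 members met it, with no MOI label (1.34%) and at MOI 100 (1.81%). Rn7s6, a 7S RNA gene, also splits the libraries. It ran from 0.565 to 1.28 CPM in NeuroD2, the chimera and both MOI 100 libraries and from 13.0 to 16.3 CPM in the rest. The chimera and its MOI 100 library lie on the same side. WCS and WCS at MOI 100 lie on opposite sides, as do WCS and the chimera, and MyoD and NeuroD2. So do GFP and each of NeuroD2, the chimera and both MOI 100 libraries. In comparisons across the sides the split cannot be told apart from the construct or MOI label. Within the higher side Bst2 ran from 17.2 to 2.62 CPM and Rsad2 from 24.7 to 0. Within the lower side Bst2 ran from 4.52 to 0.564 CPM and Rsad2 from 0.659 to 0.

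The rest of the pathway was then read from gene lists, leaving out the 9 members. These lists were chosen with earlier results of these data known. The ligands were not detected above single reads: of 18 interferon genes listed 10 matched a row of the table, 0 reached 1 CPM, 4 had 0 reads in every library and no gene had more than 1 read in any library. Ifnb1, the first type I interferon made on infection, was among those with 0 reads. The receptor and signalling genes were present, with 15 of 16 at 1 CPM or more. Ifnar1, a chain of the type I interferon receptor, ran from 50.9 CPM in MyoD to 75.6 in NeuroD2, Jak1 from 69.4 to 93.9 and Tyk2 from 20.8 to 34.2. Stat2 ran from 18.4 CPM in MyoD to 38.9 in NeuroD2 and Irf9 from 4.96 in GFP to 12.7 in WCS at MOI 100. The one receptor and signalling gene under 1 CPM was Usp18, an interferon-induced brake on the receptor, with at most 14 reads.

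Sensing genes were partly present, 14 of 19 reaching 1 CPM. Mavs ran from 6.55 CPM in WC to 13.8 in the chimera and Irf3 from 7.73 in GFP to 13.5 in the chimera at MOI 100, while the endosomal receptors Tlr3, Tlr7 and Tlr9 had at most 10 reads in any library. Of 60 other interferon-induced genes 22 (36.7%) reached 1 CPM, against 41.4% of the whole table, and 7 had 0 reads throughout. Mx1, which blocks influenza virus, had at most 2 reads, Oasl2 at most 3 and the chemokine gene Cxcl10 at most 5. Ifit2 differed from its relatives Ifit1 and Ifit3, with 2.15 CPM in MyoD, 3.53 in GFP and 5.83 in NeuroD2. Of 12 antigen presentation genes 11 reached 1 CPM, among them B2m, the light chain of MHC class I, from 17.0 to 36.1 CPM.

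Of the 64 measured pathway genes analysed outside the members, 0 met the size rule as higher over GFP in any of the 7 libraries. The number lower was 1 in MyoD, where 3.67% of all genes met the rule in either direction. It was 0 in NeuroD2 (5.98%), 0 in the chimera (2.89%), 0 for WC (3.17%) and 1 for WCS (3.44%). Between MyoD and NeuroD2 0 of the 64 met the rule (7.05% of all genes). At MOI 100, 3 were lower in the chimera (7.91%) and 1 in WCS (8.47%). Their median log2 ratio lay between -0.29 in WCS at MOI 100 and 0.01 in the chimera, beside medians of all measured genes from -0.03 to 0.04. Ifitm1, a membrane protein that restricts virus entry, met it as lower in MyoD (2.11 against 11.97 CPM) and the chimera at MOI 100 (2.43 CPM), where Tor3a did too (2.57 against 13.0 CPM). H2-K1, an MHC class I heavy chain, stood at 65.8 CPM in GFP and met it in the chimera at MOI 100 (13.2 CPM) and WCS at MOI 100 (9.56 CPM). Socs1, an inhibitor of JAK signalling, stood at 5.98 CPM in GFP and met it in WCS (1.05 CPM).

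**Figure D3:**
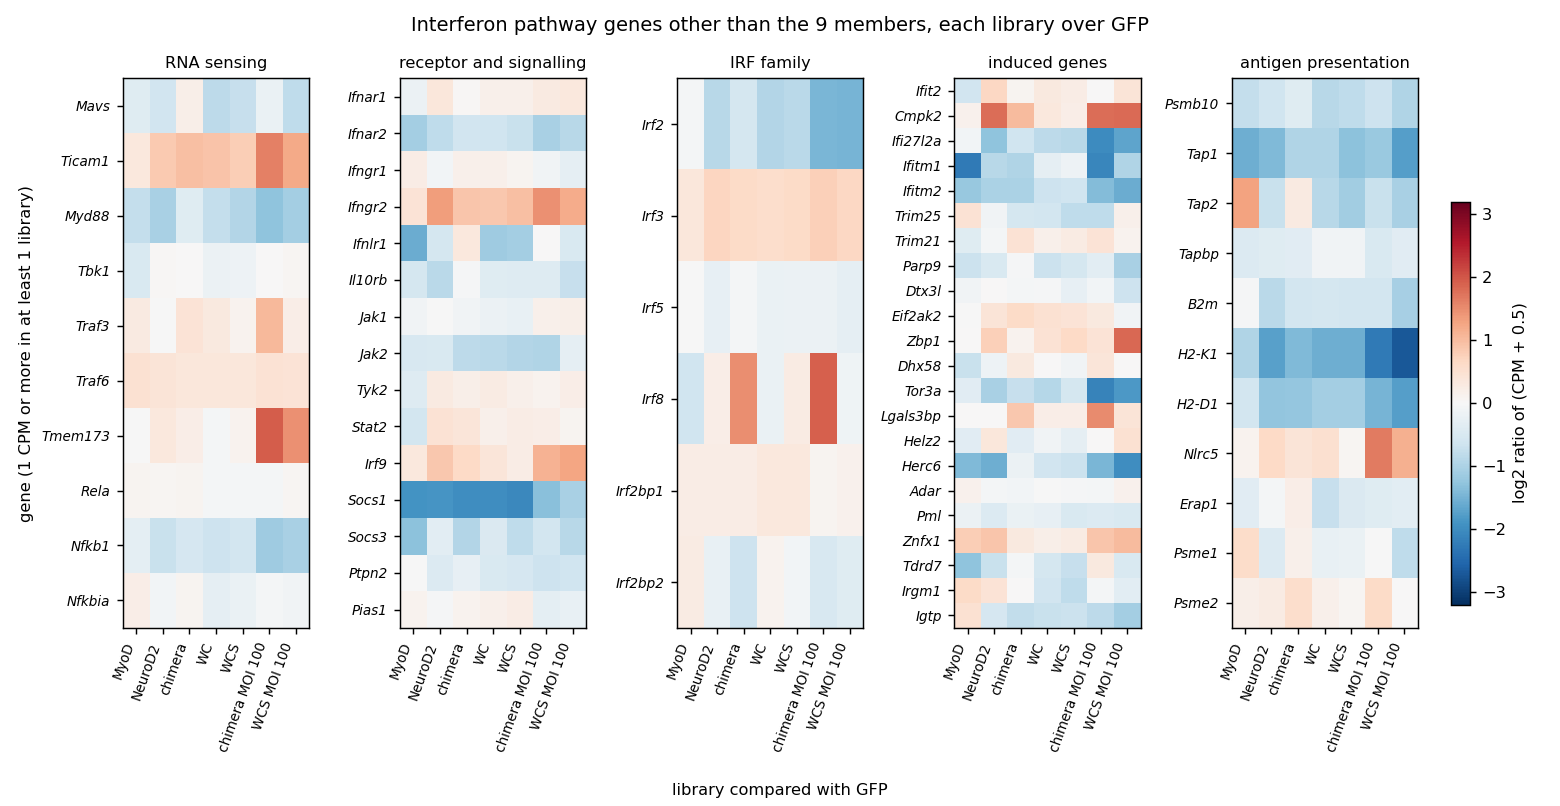
Log2 ratio of CPM + 0.5 in each of 7 libraries over GFP (columns) for pathway genes other than the 9 members that reached 1 CPM (rows), by role, red for higher and blue for lower than GFP. A gene on several lists is drawn once, H2-K1 and H2-D1 are blue in all 7, and Tmem173 is red at MOI 100.

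The 4 libraries in which construct and MOI label cross (the chimera and WCS, each with and without MOI 100) allowed a test of the genes outside the member set. By the quasi-likelihood test of edgeR, adjusted by Benjamini-Hochberg over 16079 genes, 5 of 65 pathway genes rose and 8 fell with the MOI 100 label, or 13 in all, where 25.5% of all genes passed. The difference between these shares was not tested. Tmem173, which encodes the adaptor STING, rose (log2 fold change 2.93, adjusted p = 0.0063), at 1.87 and 1.22 CPM at MOI 100 against 0.226 and 0.17 CPM. Nlrc5, an activator of MHC class I genes, rose (2.50, adjusted p = 0.014), as did Cmpk2 (1.76, adjusted p = 0.038), the RNA helicase-like gene Znfx1 and Irf9 (0.80, adjusted p = 0.049).

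On the induced gene list 2 of 23 tested genes rose and 5 fell, and on the antigen presentation list 1 of 10 rose and 1 fell. Herc6, an ISG15 ligase, fell by 1.41 on the log2 scale (edgeR adjusted p = 0.0077), at 4.37 and 2.88 CPM at MOI 100 against 11.3 and 7.88 CPM. Tor3a, an interferon-responsive ATPase gene, fell by 1.47 (adjusted p = 0.0086) and H2-K1 by 1.04 (adjusted p = 0.0092), and Ifitm1, Ifitm2, Ifi27l2a, Nfkb1 and Pias1 fell too. Nlrc5 and H2-K1 went opposite ways. Among the 4 libraries of the fit Rn7s6 was high in WCS alone (14.4 CPM), which the fit does not take into account. The fit has 1 residual degree of freedom, so its p-values say how alike the MOI difference was in both constructs, not how separate cultures vary. The DESeq2 Wald test called 7 of the 65, where it called 19.6% of all genes. With the construct term left out of the edgeR fit, 0 of all 16079 genes passed. The 0 among pathway genes is thus nothing particular to them (15 had an unadjusted p under 0.05). Fits without 1 of the 4 libraries leave 1 library in an arm, so no counts are given for them.

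Members in the same fit are given without a test. With the MOI 100 label Bst2 had a log2 fold change of -2.39, Ddx58 of -0.43, Rsad2 of -0.07, Irf1 of 0.33 and Irf7 of 0.49. Ifit1, Ifit3, Isg15 and Ifih1 had too few reads to enter the fit. The Myod1 gene, whose reads do not separate delivered from endogenous transcript, stood at 116 CPM in the chimera and 555 at MOI 100 (4.8-fold), and at 77.3 and 857 CPM in WCS (11.1-fold). Of 64 pathway genes 19 were higher at MOI 100 in both constructs, 30 lower in both and 15 higher in one only. The same count was not made over all genes, so nothing is read from it about the pathway.

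**Figure D4:**
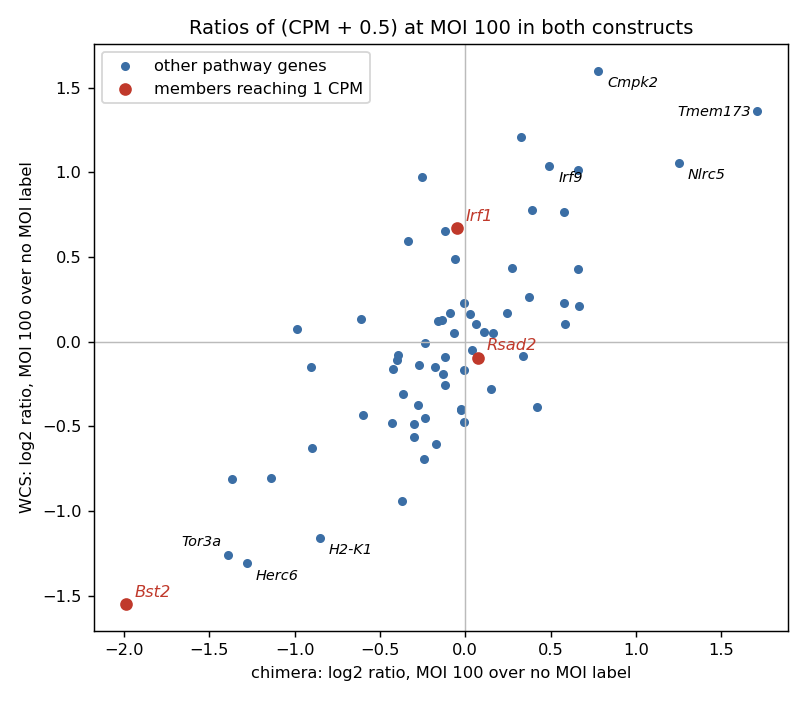
Log2 ratio of CPM + 0.5 at MOI 100 over no MOI label in the chimera (x axis) and in WCS (y axis), blue for 64 pathway genes and red for the 3 members that reached 1 CPM. Bst2 lies lowest on both axes and Rsad2 near 0 on both. The WCS value of Rsad2 rests on 0 reads at MOI 100 against 1, so its place is set by the added 0.5 CPM. Irf1 lies near 0 in the chimera and at 0.67 in WCS, and Tmem173, Nlrc5 and Cmpk2 lie upper right.

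Between the constructs of the same 4 libraries, 1 of 65 pathway genes rose and 4 fell in WCS against the chimera in edgeR's quasi-likelihood test, where 11.3% of all genes passed. Ifitm1 rose (log2 fold change 1.05, adjusted p = 0.043). Irf8, a hematopoietic IRF, fell by 2.21 (adjusted p = 0.016), at 0.849 and 0.533 CPM in WCS against 2.67 and 3.75 CPM in the chimera, and the tudor domain gene Tdrd7 and the proteasome activator genes Psme1 and Psme2 fell too. With the MOI term left out of the edgeR fit, 0 of all 16079 genes passed. The 0 among pathway genes is again nothing particular to them (4 had an unadjusted p under 0.05). For fits without 1 library no counts are given, since they leave 1 library in an arm.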

How the data were processed

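Oligo-dT-selected RNA of 8 P19 cultures was sequenced by Illumina HiSeq, per the labels. The authors deposited raw read counts for each Ensembl gene, and the submitters' processing notes name CASAVA 1.8.2, TopHat2 2.0.8 and mm9. The read counter, annotation release and strandedness were not given in the sources used here. Thus reads from overlapping genes or near-identical paralogs such as the Ifit, Oas and Ifitm families can be split in an unknown way. Symbols came from GENCODE M21 by identifier for 32850 genes (87.5%). CPM used TMM scaling over 8 libraries (edgeR 4.0.16). Ratio intervals are exact conditional binomial and level intervals exact Poisson, both 95%. They cover counting error only, since each group has 1 library and spread between cultures does not enter them. PCR reads are not independent molecules, so the intervals can be too narrow even for counting error. With 1 library per group no groups were tested. The 4-library fit used filterByExpr and edgeR's quasi-likelihood test. DESeq2 1.42.0, R 4.3.3, Python 3.11.15 and matplotlib 3.10.9 were also used. On simulated MOI 100 data (16113 genes) the fit recovered 100% of 4-fold changes and called 14 unchanged genes. The size rule recovered 46% of 4-fold and 100% of 8-fold changes. Changes were planted only in well-expressed genes, with the same low spread for all genes and no construct effect. Recovery in the real libraries, or of genes near 1 CPM, was therefore not measured. The members and lists were chosen with earlier results of these data known. Some genes of the pathway lists are not reported here and enter no pathway count. Genes were named by rule: all members, a panel, list genes past the size rule or threshold, and the 3 nearest in pattern to members ranging at least 4-fold. Alternatives changed scaling, minimum level, pseudocount, fold, test, filter, model terms and libraries.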

Additional observations from a re-analysis of the deposited data

How the results depend on the processing

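No paired analysis was possible because the labels give no replicate numbers and each group has 1 library. The number of members reaching 1 CPM was 3 under all 3 scalings. The log2 ratios of Rsad2, Bst2 and Irf1 stayed within their counting intervals under both other scalings in all comparisons with reads in both libraries, although scaling to total gene counts shifts the median of all genes by 0.14 in NeuroD2, 0.12 in the chimera at MOI 100 and 0.20 in WCS at MOI 100 over GFP, by 0.12 in WCS at MOI 100 over WCS and by -0.14 in MyoD over NeuroD2. Counts of members meeting the size rule were small and moved with its cut. For settings of the size rule other than the main one, the share of all genes was not computed. Nothing is therefore read about the members or the pathway from those counts. For members in MyoD over NeuroD2 the 2 became 1 at 8-fold or a pseudocount of 2 CPM. In WC over GFP the 1 became 0 at 8-fold, with that pseudocount or with total gene counts, and in WCS over GFP 0 at 8-fold. At 2-fold members numbered 2 in MyoD, WC, WCS and WCS at MOI 100 over GFP, and 1 in the chimera over GFP and in WCS over the chimera. For the 64 pathway genes at 2-fold the counts over GFP were 8 in MyoD, 9 in NeuroD2, 4 in the chimera, 3 in WC, 4 in WCS, 16 in the chimera at MOI 100 and 15 in WCS at MOI 100. They were 3 and 4 for MOI 100 over its partner in the chimera and WCS, 4 for MyoD over NeuroD2 and 1 for WCS over the chimera at MOI 100. At 8-fold the counts over GFP were 0 in MyoD, WCS and both MOI 100 libraries. With a pseudocount of 2 CPM they were 0 in MyoD, 0 in WCS and 1 in the chimera at MOI 100. DESeq2 size factors gave 1 in WC and 1 in the chimera over GFP, total gene counts 0 in WCS, and no minimum level 1 in MyoD over NeuroD2 and 1 in WCS over the chimera at MOI 100. With the MOI 100 label 7 pathway genes passed in the DESeq2 Wald test, against 13 in edgeR. With the second factor left out of the edgeR fit, 0 genes of any kind passed for the MOI label or for the construct. Of pathway genes 15 and 4 had an unadjusted p under 0.05. Fits were also run without each library in turn. They leave a lone library in 1 arm, so their counts of passing genes are not given. That lone library is assumed to vary like the others, and the second factor was left out of these fits to keep 1 residual degree of freedom. At these depths genes with a few reads cannot be ranked between libraries.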

Other observations

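A few genes named for blood cells had a pattern of their own and were picked out after their values were seen. Laptm5, a lysosomal membrane protein gene of blood cells, stood at 17.0 CPM in the chimera at MOI 100 and 9.19 in the chimera, against 4.40 in NeuroD2, 2.57 in MyoD, 1.41 in WC, 0.679 in WCS, 0.595 in WCS at MOI 100 and 0.268 in GFP. Itgam, an integrin chain of myeloid cells, stood at 3.64 CPM in the chimera at MOI 100 and at 0.752 CPM or less in the other 7 libraries. Irf8 was likewise highest in the chimera at MOI 100 and next in the chimera, at 3.75 and 2.67 CPM, against 0.23 to 0.849 CPM elsewhere. On the list of leukocyte markers that holds Laptm5 and Itgam, Csf1r stood at 9.76 to 12.7 CPM, Lyz2 at 3.09 to 7.14 and Cd68 at 2.07 to 4.84 over the 8 libraries, while Ptprc, Adgre1 and Tyrobp had at most 2 reads in any library, those of the chimera included.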
